A study of Mus musculus with 6 samples.

Results

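The BCL2 family decides whether the outer mitochondrial membrane stays intact, and 10 of its genes were followed in B16F10, a line of pigmented mouse melanoma cells, cultured with DMSO or with the EZH2 inhibitor GSK126. The members were chosen as a gene family and matched by symbol, and all 10 were found among the 54838 genes of the count tables. They comprise 3 anti-apoptotic genes (Bcl2, Bcl2l1, Mcl1), 2 effector genes (Bax, Bak1) and 5 BH3-only genes (Bcl2l11, Bbc3, Pmaip1, Bmf, Bid). RNA was sequenced from 3 samples treated with the vehicle DMSO and 3 treated with GSK126 at 10 µM. GSK126 inhibits EZH2, the subunit of Polycomb repressive complex 2 that methylates lysine 27 of histone H3. Neither the length of the treatment nor the origin of the replicates is given in the sources used here, so p-values reflect only how far these 6 samples scatter, which may be technical scatter. All samples are of 1 cell line, and no protein or cell death was measured in the files used here.

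Proteins of this family share short BCL2 homology (BH) regions and act by binding one another. The anti-apoptotic proteins BCL2, BCL-XL (the long product of Bcl2l1) and MCL1 hold the pore-forming effectors BAX and BAK in check, while BH3-only proteins carry stress signals, by occupying the groove of the anti-apoptotic proteins or by engaging the effectors. In pigment cells, MITF is known to activate Bcl2, and melanomas are known to depend on varying mixtures of MCL1, BCL-XL, BCL2 and BCL2A1.

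The libraries held 13594939 to 14713373 counts. Melanocyte markers were abundant in every library, with 7 genes summing to 21369 to 22574 CPM (counts scaled to a common library total) with DMSO and 22772 to 23945 CPM with GSK126. The 16 markers of leukocytes, fibroblasts, endothelium and epithelium summed to 6.39 to 7.48 CPM and 7.04 to 7.61 CPM, and Cd3e, Itgam, Cdh5 and Kdr were at 0 throughout. Ezh2, the target of the drug, had 189 ± 4.84 CPM in DMSO and 193 ± 3.47 CPM in GSK126 samples (SD, n = 3), a log2 fold change of 0.03 with a 95% interval of -0.07 to 0.13. GSK126 replicate 3 lay apart from the other GSK126 samples on principal component 2, which held 18.8% of the variance, with a score of -23.8 against 15.9 and 15.2.

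With GSK126, 2 of the 9 members with reads rose, 1 fell and 6 missed the threshold, an adjusted p of 0.05 in edgeR's quasi-likelihood test (Benjamini-Hochberg, over 13601 tested genes). Each of these 9 had at least 96 reads in every library. Over all tested genes, 11.1% passed, 5.87% higher and 5.18% lower. The members were chosen with earlier results of these data known, so their count is not independent evidence. Bcl2l1 rose 1.86-fold and Bmf 1.46-fold, while Bcl2 fell to 0.768 of its DMSO level. By role, 1 anti-apoptotic gene rose, 1 fell and 1 did not pass. Neither effector gene passed. Among the BH3-only genes, 1 rose, 3 did not pass and Pmaip1 had no reads. Over the 9 members the log2 fold change had a median of -0.07, against -0.00048 over all tested genes.

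The regions before the start sites of the 3 members that passed the test are shown with their CpG dinucleotides, since Polycomb complexes are known to bind at CpG-rich promoters. RefSeq (GRCm38.p6) gave 16 start sites for 9 of the 10 members; Pmaip1 was not among them. The 250 bases before the outermost start are printed 5′ to 3′ on the strand of the gene, with CpG dinucleotides in capitals. Bcl2l1 lies on the minus strand, with the window at chr2:152831729-152831978. Bmf is also on the minus strand, at chr2:118549687-118549936, as is Bcl2, at chr1:106714291-106714540.
Bcl2l1 promoter: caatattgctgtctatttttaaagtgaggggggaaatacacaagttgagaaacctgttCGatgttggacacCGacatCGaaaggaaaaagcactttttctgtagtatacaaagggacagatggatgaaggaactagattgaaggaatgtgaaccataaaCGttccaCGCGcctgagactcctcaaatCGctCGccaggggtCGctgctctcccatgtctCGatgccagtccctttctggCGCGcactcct
Bmf promoter: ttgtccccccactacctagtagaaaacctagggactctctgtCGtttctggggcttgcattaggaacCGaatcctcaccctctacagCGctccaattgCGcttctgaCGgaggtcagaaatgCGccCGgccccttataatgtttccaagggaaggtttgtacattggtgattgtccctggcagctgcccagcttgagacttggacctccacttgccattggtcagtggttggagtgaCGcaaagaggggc
Bcl2 promoter: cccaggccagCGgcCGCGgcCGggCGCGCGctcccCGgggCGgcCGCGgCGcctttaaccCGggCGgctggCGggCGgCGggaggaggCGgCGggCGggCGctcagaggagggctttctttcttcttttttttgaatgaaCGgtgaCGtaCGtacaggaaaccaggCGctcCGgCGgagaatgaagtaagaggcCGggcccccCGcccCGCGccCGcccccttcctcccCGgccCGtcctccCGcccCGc
The Bcl2 window held 36 CpG dinucleotides at a GC content of 74.8%, more CpG than 97.4% of the 32851 windows of all genes. Bcl2l1 had 12 (47.6% GC) and Bmf 8 (54.0% GC), against a median of 6 CpG and 52.4% GC over all windows. The other start sites of Bcl2l1 had 11 and 0 CpG, and those of Bmf 5 and 3. Windows of members that did not pass ranged from 8 CpG (Bak1) to 37 (Bbc3). Neither histone marks nor DNA methylation were measured in the files used here, so these letters are a description.

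Letters of 5 motifs, known to be read by some factors of the wider list, were searched on both strands in the same 250 bases. Letters for other factors of that list, such as Trp53, E2f1, Rela and Nfkb1, were not searched. The E-box CACGTG, bound by MITF, MYC and other factors of their class, occurred in 6.02% of all windows and, among members, before Bax (9 to 4 bases before the start) and before 1 of 3 starts of Bbc3 (64 to 59 bases before it). The FOXO letters GTAAACA occurred in 3.17% of all windows and before 1 start each of Bcl2l11 and Bbc3, and the EGR letters GCGGGGGCG in 2.57% and before 1 start each of the same genes. The STAT letters TTCNNNGAA (7.02% of all windows) and the CHOP-ATF letters TGATGCAA (0.791%) were not in the 16 windows. None of these 5 motifs overlapped another in these windows, and none lay in a printed window. A match here is a run of letters, not a measured site.

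Levels of different genes were compared in FPKM, the authors' values per length of gene. Each gene has 1 fixed length here, whichever of its transcripts are present, so ranks, ratios and shares between genes depend on that length. Mcl1, which encodes a short-lived anti-apoptotic protein, was by far the most abundant member, at 77.9 ± 2.12 FPKM with DMSO and 80.1 ± 1.77 FPKM with GSK126 (SD, n = 3). It exceeded 96.6% of the tested genes. With DMSO the order below it was Bax (25.1 FPKM), Bak1 (21.5), Bid (6.05), Bcl2 (4.98), Bbc3 (4.31), Bcl2l1 (1.77), Bmf (0.708) and Bcl2l11 (0.706), and the samples of Bmf and Bcl2l11 overlapped while no other neighbours did. With GSK126 the order of the 9 genes was the same, but now Bax overlapped Bak1, Bcl2 overlapped Bbc3, and Bbc3 overlapped Bcl2l1. Bcl2l1 reached 3.44 FPKM with GSK126, below each DMSO sample of Bbc3 (4.11 FPKM or more). Its overlap with Bbc3 thus also rests on lower Bbc3 samples with GSK126 (from 3.14 FPKM). Bmf (1.04 FPKM) came to lie above Bcl2l11 (0.673 FPKM) without overlap.

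**Figure D1:**
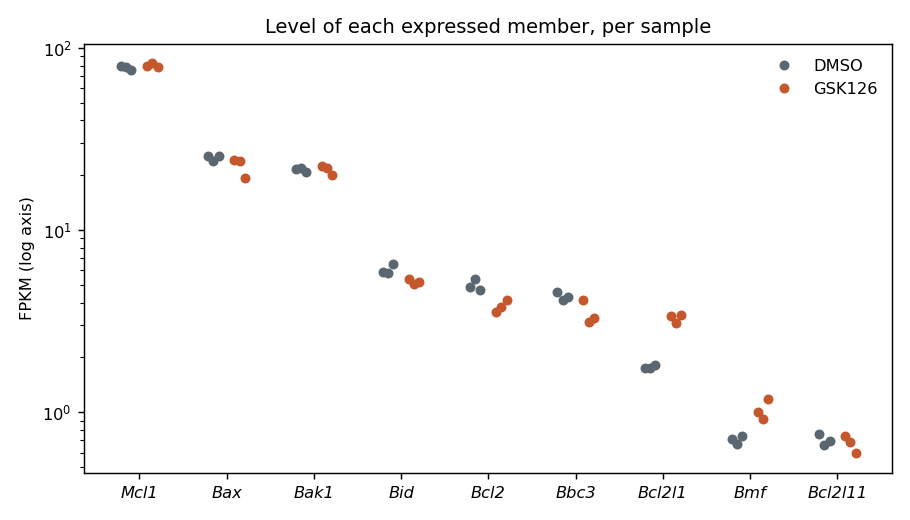
FPKM (log axis) of the 9 expressed members in each of 3 DMSO and 3 GSK126 samples, 1 point per sample, ordered by the DMSO mean. Mcl1 lies near 80 FPKM in both groups, and the Bcl2l1 points move from about 1.77 to 3.30 FPKM.

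Bcl2l1 encodes BCL-XL, which protects mitochondria of many cell types, and a shorter product that promotes death. Its counts were 283, 292 and 296 with DMSO and 575, 540 and 590 with GSK126. In CPM these were 20.8, 20.8 and 21.9 against 40.1, 36.7 and 41.1, so that the lowest GSK126 sample lay far above the highest DMSO sample. The log2 fold change was 0.89 (SE 0.08, 95% interval 0.72 to 1.07, adjusted p = 0.00108 by edgeR). The gene spans GRCm38 chromosome 2, 152780668 to 152831728, and GENCODE M21 gives it 8 coding transcripts. Reads were counted per gene, so the long and short products cannot be told apart. The call held in each of 15 alternative analyses, with log2 fold changes from 0.63 to 0.94 (highest adjusted p 0.0157), and without GSK126 replicate 3 it was 0.86 (adjusted p = 0.0035 by edgeR).

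Bcl2, the founding anti-apoptotic gene, went the other way. Its counts were 666, 758 and 640 with DMSO and 509, 561 and 600 with GSK126. The CPM values were 49.0, 53.9 and 47.4 against 35.5, 38.1 and 41.8, and the groups did not overlap. The log2 fold change was -0.38 (SE 0.09, 95% interval -0.58 to -0.18, adjusted p = 0.0339 by edgeR). Without GSK126 replicate 3 it was -0.44 (adjusted p = 0.0266), but the call ended when any 1 of the other 5 libraries was left out, at adjusted p values of 0.0643 to 0.115. The gene spans chromosome 1, 106538178 to 106714274. It shares 558 bp of exons with D630008O14Rik on the opposite strand, which had 0 reads.

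Mcl1 did not pass the test. Its counts were 4362, 4447 and 4137 with DMSO and 4542, 4866 and 4583 with GSK126, or 321, 316 and 307 CPM against 317, 331 and 320. The groups overlapped, and the log2 fold change was 0.04 with a 95% interval of -0.06 to 0.13 (adjusted p = 0.603 by edgeR). This interval excludes a change of the size seen for Bcl2l1 or Bcl2. Mcl1 is at chromosome 3, 95658788 to 95663176.

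The opposite moves of Bcl2l1 and Bcl2 changed their proportion more than their sum. The Bcl2 level was 2.79, 3.08 and 2.57 times that of Bcl2l1 in FPKM with DMSO and 1.05, 1.23 and 1.21 times with GSK126. In FPKM, Bcl2 was still the higher of the pair in each of the 6 samples, but this order depends on the length used for each gene. In CPM, which is not divided by length, Bcl2l1 was the higher in GSK126 replicate 1 (40.1 against 35.5). It was the lower in GSK126 replicates 2 (36.7 against 38.1) and 3 (41.1 against 41.8) and in the DMSO samples. The FPKM of both together was 6.75 ± 0.315 with DMSO and 7.14 ± 0.39 with GSK126 (SD, n = 3), with overlapping samples. Summed over the 3 anti-apoptotic genes the level was 84.6 ± 2.27 and 87.2 ± 1.56 FPKM, of which Mcl1 made up 92.0% and 91.8%, Bcl2 5.88% and 4.4%, and Bcl2l1 2.10% and 3.79%. A sum of FPKM rests on the fixed length of each gene and says nothing of protein amounts. These sums are given as a description with no test.

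**Figure D2:**
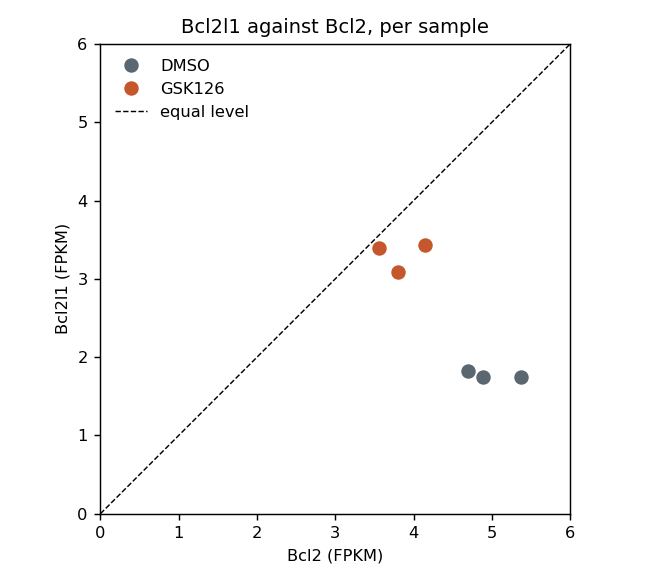
Bcl2l1 (y axis, FPKM) against Bcl2 (x axis, FPKM) in the 6 samples, 1 point per sample, with a dashed line where both are equal. The 3 DMSO samples lie at Bcl2 to Bcl2l1 ratios of 2.57 to 3.08 and the 3 GSK126 samples close to the line, at 1.05 to 1.23.

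Neither pore-forming effector passed the test in edgeR or DESeq2, and neither was at an unadjusted p below 0.05. Bax, whose protein moves from the cytosol into the mitochondrial membrane on activation, had 66.1, 62.2 and 66.4 CPM with DMSO and 62.3, 61.7 and 50.0 CPM with GSK126, where replicate 3 alone was low. The log2 fold change of Bax was -0.16 (95% interval -0.38 to 0.06, adjusted p = 0.312 by edgeR), and -0.07 without GSK126 replicate 3. Bak1, whose protein resides in that membrane, had 94.6, 96.6 and 92.8 CPM against 97.9, 96.5 and 88.3 CPM (log2 fold change -0.01, 95% interval -0.14 to 0.13, adjusted p = 0.959 by edgeR), and its sign turned without DMSO replicate 2 (0.0079) or GSK126 replicate 3 (0.04). In Bak1, too, GSK126 replicate 3 was the lowest sample. Both effectors together stood at 46.5 ± 0.574 FPKM with DMSO and 43.9 ± 4.05 FPKM with GSK126 (SD, n = 3). Bax lies on chromosome 7, 45461697 to 45466898, and Bak1 on chromosome 17, 27019810 to 27029009. The partners that share their exons, Gm45808 and Ggnbp1, had 5 and 60 reads in all 6 libraries.

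Bmf was the BH3-only gene that rose. Its protein is known to be held at the cytoskeleton and released when cells detach. Its counts were low, from 96 to 173 in the 6 libraries, or 7.28, 6.83 and 7.56 CPM against 10.2, 9.38 and 12.1 CPM. The groups did not overlap, and GSK126 replicate 3 was the highest sample. The log2 fold change was 0.55 (SE 0.13, 95% interval 0.25 to 0.84, adjusted p = 0.037 by edgeR). This call is close to the threshold: it ended without any 1 of the 6 libraries (adjusted p from 0.0511 to 0.119, and 0.0721 without GSK126 replicate 3) and with DESeq2 (0.0513), while the log2 fold change was above 0 in each of 15 alternatives. The gene is at chromosome 2, 118528757 to 118549687.

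Bbc3, Bid and Bcl2l11 did not pass. Bbc3 encodes PUMA, a BH3-only protein best known as a p53 target, and had 13.7, 12.4 and 13.0 CPM with DMSO and 12.4, 9.45 and 9.97 CPM with GSK126. Replicate 1 of the GSK126 group lay within the DMSO range, and the log2 fold change was -0.29 (95% interval -0.59 to 0.00131, adjusted p = 0.184 by edgeR). Bid, which caspase-8 cleaves to link death receptors to mitochondria, had 32.0, 31.7 and 35.6 CPM against 29.3, 27.7 and 28.5 CPM. The Bid samples did not overlap, as was the case for 34.4% of all tested genes. The log2 fold change was -0.22 (SE 0.08, 95% interval -0.39 to -0.04). By edgeR it was at an unadjusted p of 0.0231 but missed the threshold (adjusted p = 0.114). Part of the Bid reads is uncertain, since the gene (chromosome 6, 120891930 to 120916853) shares 628 bp of exons with Bcl2l13 on the opposite strand, which had 14793 reads in all libraries against 2600 for Bid. The summed counts of both genes had a log2 fold change of -0.04 (adjusted p = 0.624 by edgeR). Bcl2l13 made up most of this sum and had a log2 fold change of -0.01, so the sum cannot show whether Bid differed. Bcl2l11 encodes BIM, whose transcript and protein are known to be held down by ERK signalling. It had 11.8, 10.2 and 10.9 CPM against 11.4, 10.6 and 9.27 CPM, overlapping groups with a log2 fold change of -0.07 and an interval of -0.35 to 0.20 (adjusted p = 0.726 by edgeR). Its sign turned without GSK126 replicate 3 (0.0044).

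**Figure D3:**
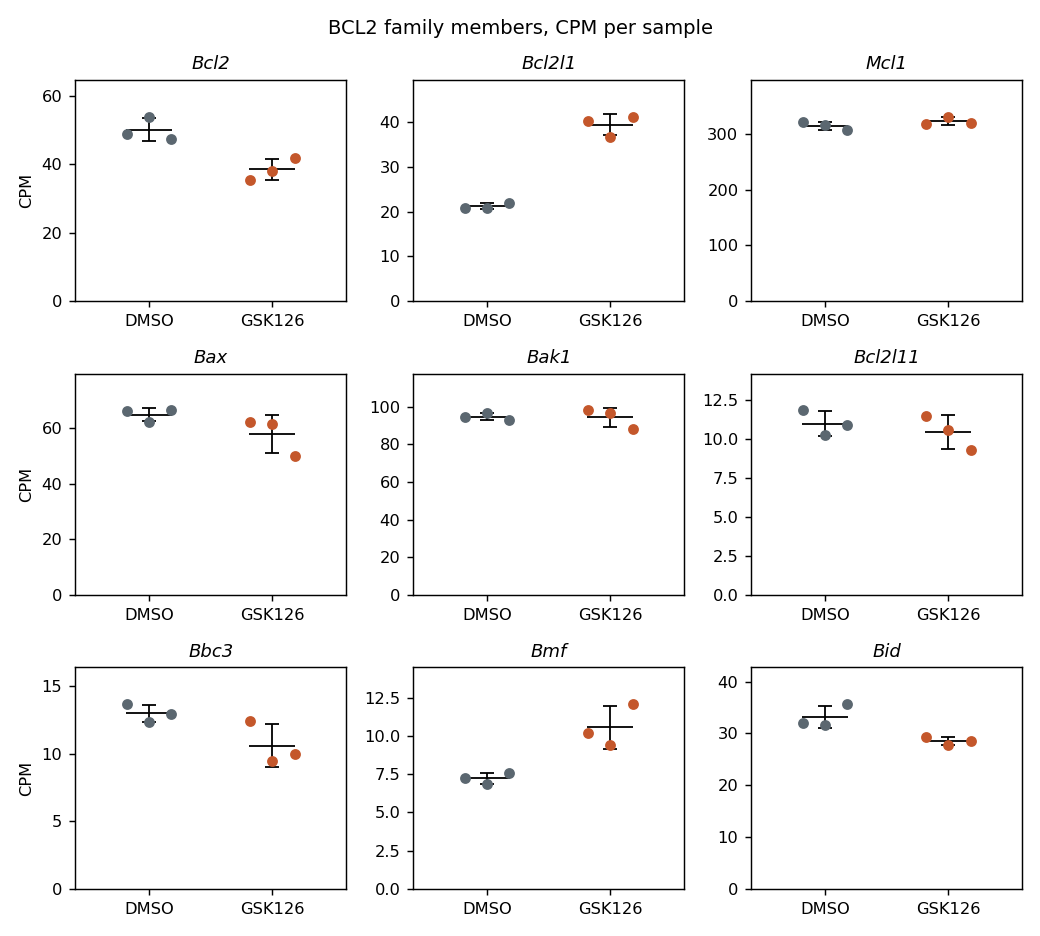
CPM of the 9 members with reads in each sample (points), with the group mean and SD as bars, on axes that start at 0. The Bcl2l1, Bcl2, Bmf and Bid samples do not overlap between the groups, and those of the other 5 genes do. Over all tested genes, 34.4% did not overlap.

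Pmaip1, which encodes the p53- and stress-inducible BH3-only protein NOXA, had 0 reads in each of the 6 libraries. A count of 0 allows up to 3 reads, or 0.204 to 0.222 CPM per library, for counting error only. The files place it on chromosome 18, 66458604 to 66465550. The nearest genes with reads in every library are Lman1, 436 kb to one side with 2235 to 2544 reads, and Gnal, 623 kb to the other with 4 to 12 reads. The 6 other annotated genes between them, of which 2 encode proteins, also had 0 reads. A count of 0 does not tell a silent gene from an absent one. These neighbours were chosen after their values were seen.

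Summed over the BH3-only genes the level was 11.8 ± 0.485 FPKM with DMSO and 10.5 ± 0.756 FPKM with GSK126 (SD, n = 3). The samples overlapped, at 11.2 to 12.2 and 9.82 to 11.3 FPKM. Bid gave 51.3% and 50.0% of this sum, Bbc3 36.6% and 33.6%, Bmf 6.01% and 9.93%, and Bcl2l11 6.0% and 6.43%. Bmf is thus a minor share of the summed FPKM of this class in both groups. In CPM, not divided by length, Bmf had a mean of 7.22 of 64.4 with DMSO and 10.5 of 60.1 with GSK126.

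Of 16 other genes of the family or named for it, 8 had enough reads to test, and 2 rose while none fell by edgeR (1 gene, Bnip2, was lower at an unadjusted p below 0.05). The log2 fold change had a median of 0.20. Beside the counts of this list and those below stands the 11.1% of all tested genes that passed. All of these lists were chosen with earlier results of these data known, so none of their counts is independent evidence. Bnip3 and Bnip3l encode BH3-like proteins of the outer mitochondrial membrane that act as mitophagy receptors. Bnip3 had 21.8, 20.1 and 21.7 CPM with DMSO and 92.1, 91.3 and 80.2 CPM with GSK126, a 4.14-fold rise (adjusted p = 0.000155 by edgeR). Bnip3l went from 58.4, 57.6 and 59.6 CPM to 81.8, 79.5 and 72.4 CPM (log2 fold change 0.41 ± 0.06 SE, edgeR adjusted p = 0.00965). Both groups were fully apart in each gene. The anti-apoptotic BCL2A1 genes Bcl2a1a, Bcl2a1b and Bcl2a1d, and Bcl2l14, had 0 reads in every library. Bcl2l10, Hrk and Bcl2l15 had at most 4 reads in any library. The BH3-only gene Bik was also too low to test by the filter, with 4, 2 and 1 reads with DMSO and 8, 9 and 8 with GSK126. In the analysis without that filter its log2 fold change was 1.71 (adjusted p = 0.113 by edgeR).

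**Figure D4:**
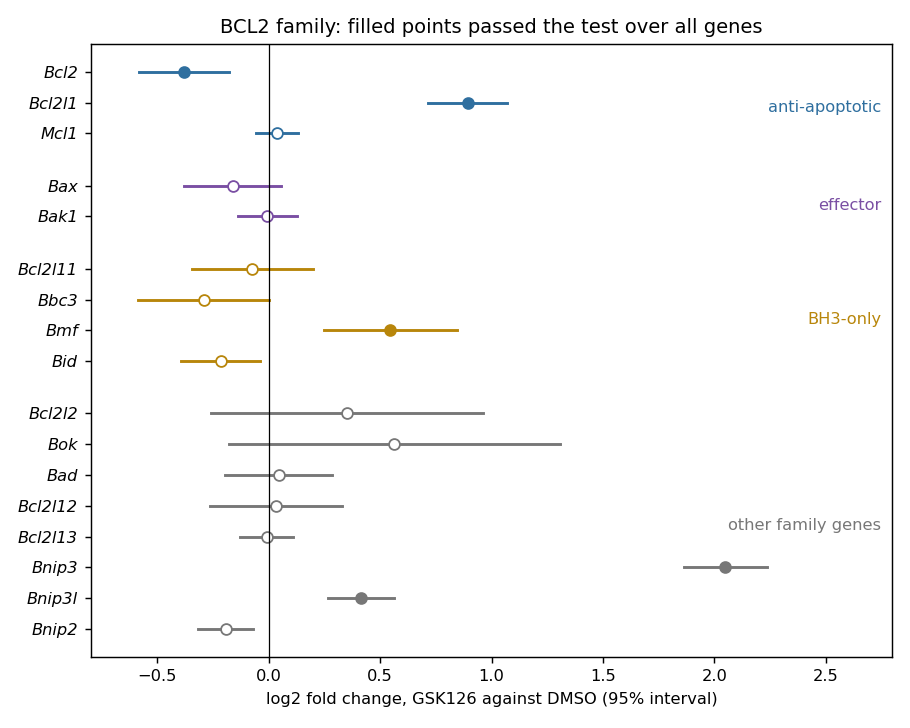
Log2 fold change (points) with 95% intervals (bars) of the 9 tested members by role and of 8 other family genes, filled where the gene passed the test over all genes. Bcl2l1 (0.89), Bmf (0.55), Bnip3 (2.05) and Bnip3l (0.41) lie to the right of 0 and Bcl2 (-0.38) to the left, while the intervals of Mcl1, Bak1 and Bax span 0. The intervals of Bid and Bnip2, which did not pass, lie to the left of 0.

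The genes that act after the mitochondrial step gave 1 call. Of 18 genes of the apoptosome, the caspases and the inhibitors of apoptosis, 1 fell, none rose and 17 did not pass by edgeR (median log2 fold change -0.0035). Casp9 and Casp6 were higher at an unadjusted p below 0.05 (log2 fold changes 0.26 and 0.51, edgeR adjusted p = 0.0567 and 0.067). The gene that fell was Htra2, which encodes a mitochondrial protease released with cytochrome c. Its CPM values were 64.9, 60.7 and 72.7 with DMSO and 47.4, 48.3 and 48.7 with GSK126 (log2 fold change -0.46 ± 0.08 SE, edgeR adjusted p = 0.0131), and the call ended without GSK126 replicate 1 (0.0512). Htra2 shares 753 bp of exons with Aup1 and 535 bp with Loxl3, both on the opposite strand with more reads than Htra2, so part of its reads is uncertain. None of 7 genes for channels and shaping of mitochondrial membranes, known to work with BAX and BAK, passed in edgeR or DESeq2, with 1 at an unadjusted p below 0.05 (Vdac2, 0.0434). Without GSK126 replicate 3, 1 of these 7 genes, not Vdac2, passed by edgeR. Vdac1, a porin with the highest level of these, differed by a log2 fold change of -0.01 with an interval of -0.19 to 0.18. Likewise none of 7 tested genes for the turnover or anchoring of BCL2 proteins passed in edgeR or DESeq2, and 1 was at an unadjusted p below 0.05 (Btrc, 0.0206). Huwe1, a ubiquitin ligase of MCL1 and the gene with the highest CPM of these, had a log2 fold change of 0.06 with an interval of -0.10 to 0.22.

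In a list of genes around the death receptor arm, which reaches mitochondria through BID, 1 of 9 tested genes rose, 1 fell and 7 missed the threshold. Cflar, the inhibitor of caspase-8, rose from 173, 184 and 168 CPM to 207, 205 and 207 CPM (log2 fold change 0.23 ± 0.05 SE, edgeR adjusted p = 0.0236). Its call was lost without DMSO replicate 1 or 3 or GSK126 replicate 1 or 2, at adjusted p values of up to 0.0942. Tnfrsf12a, the receptor of the cytokine TWEAK, fell from 29.0, 33.3 and 28.7 CPM to 17.3, 16.9 and 13.5 CPM (log2 fold change -0.93 ± 0.12 SE, edgeR adjusted p = 0.005). Among the other receptor genes of the list, Tnfrsf10b (log2 fold change 0.10) and Tnfrsf1a (0.08) did not pass by edgeR. The receptor gene Fas had 6 to 12 reads in each library and was not tested.

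Transcription factors known to act on genes of the family moved in both directions. Of 14 tested, 4 rose, 3 fell and 7 did not pass, and the median log2 fold change was -0.19. Of the 7 that did not pass, Foxo1 was higher and Atf3, E2f1, Rela and Nfkb1 lower at an unadjusted p below 0.05. Some of these factors were put on the list knowing that they differed in these samples, so the count is not independent evidence. Egr1, an immediate early factor, rose from 21.2, 27.5 and 18.9 CPM to 85.8, 147 and 93.7 CPM. Stat3, known to activate Bcl2l1 and Mcl1, had 55.9, 56.5 and 55.1 CPM against 88.9, 88.4 and 89.5 CPM (log2 fold change 0.67 ± 0.05 SE, edgeR adjusted p = 0.000639). It shares 72 bp of exons with Stat5a, which had 68.9% as many reads. Mitf had 679, 656 and 614 CPM against 975, 957 and 1016 CPM (0.60, SE 0.05, adjusted p = 0.00101), which is the opposite direction to Bcl2. Myc, known to raise the sensitivity of cells to apoptosis, fell from 48.3, 49.7 and 47.4 CPM to 33.9, 25.9 and 31.4 CPM (log2 fold change -0.67 ± 0.10 SE, edgeR adjusted p = 0.00945). The other called factors were closer to the threshold. Foxo3 rose by 0.18 on the log2 scale (edgeR adjusted p = 0.0477), a call that ended without any 1 of the 6 libraries (up to 0.158) and with DESeq2 (0.118). Ddit3, which encodes CHOP, fell by 0.29 (0.0179), and its call was kept only without GSK126 replicate 3 when 1 library was left out (up to 0.0669). Atf4, which acts with CHOP in the stress response, fell by 0.35 (0.0314), and its call was kept only without DMSO replicate 3 (up to 0.108). The part of these factors in the values of the family was not tested.

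**Figure D5:**
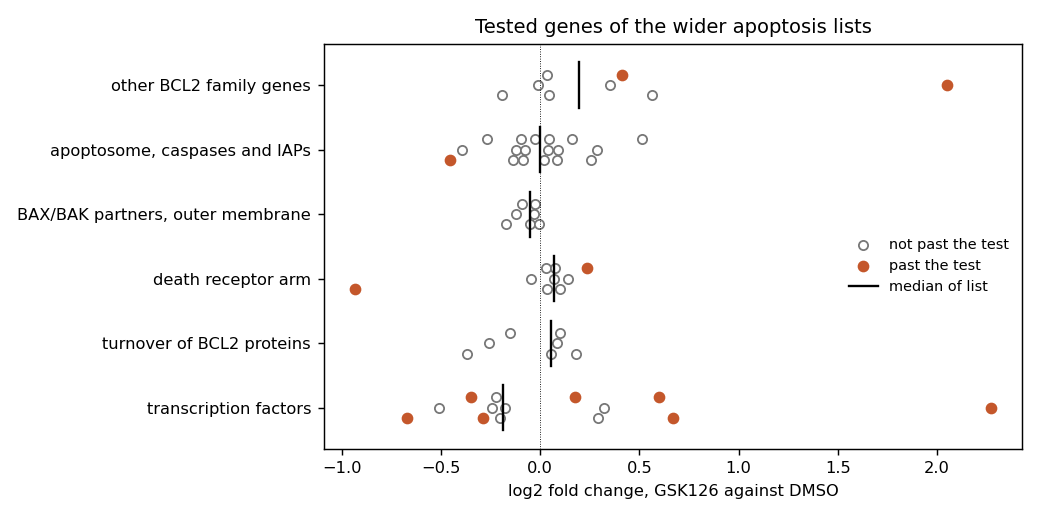
Log2 fold change of each tested gene (points) in 6 lists of genes around the family, filled where the gene passed the test over all genes, with the median of each list as a line. Of 63 genes, 12 are filled, 7 of them among the transcription factors. All 6 lists were chosen with earlier results of these data known, and some of the factors were listed knowing that they differed. Over all tested genes, 11.1% passed.

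The genes whose pattern was most like that of Bcl2l1, the member with the smallest p, were Gpc1, Gjb2 and Ak3. Their log2 CPM values had Pearson correlations of 0.999 with Bcl2l1 over the 6 samples. They encode a cell surface proteoglycan, a gap junction protein and a mitochondrial nucleotide kinase. Gpc1 rose by 0.42, Gjb2 by 0.67 and Ak3 by 0.29 on the log2 scale. Ak3 shares 430 bp of exons with Cdc37l1 on the opposite strand, which had 61.1% as many reads, so part of its reads is uncertain. All of these points share the same libraries in 2 groups, so any gene with a steady difference between the groups has a correlation of this kind.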

How the data were processed

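Per the file headers, the authors deposited a table of whole read counts for each of the 6 samples, and a table of FPKM values for all of them. Per the submitters' processing notes, base calling used CASAVA 1.8 and HISAT2 aligned the reads, with GRCm38.p4 (mm10) as genome. How reads were counted, with which annotation and strand setting, is not given in the sources at hand, so reads of overlapping genes cannot be told apart by strand. For each gene the deposited FPKM was a fixed multiple of its share of the library's counts, and this multiple differed at most 1.000009-fold among libraries for the 10025 genes with at least 100 reads in each library.

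Counts were fitted in R 4.3.3 with edgeR 4.0.16 (filterByExpr, TMM factors of 0.994 to 1.007, glmQLFit and glmQLFTest, group as the only term), which left 13601 genes, with Benjamini-Hochberg adjustment over them. Standard errors come from the F statistic and 95% intervals from its degrees of freedom. Alternatives used DESeq2 1.42.0, limma 3.58.1 (voom, or FPKM with a pseudocount of 1 or 0.1), other scalings and filters, a replicate block, and each library left out. The test was tested on simulated data.

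Members and lists were chosen with earlier results of these data known. By rule the text names the members, called genes of the other family list, up to 4 called genes or else the gene with the highest CPM of each other list, Ezh2, and the 3 genes most like the member with the smallest p (at least 5 CPM, predicted genes left out). Foxo3, Ddit3, Atf4, the genes named for an unadjusted p below 0.05, and genes below the filter were named after their values were seen. A partner gene was counted as overlapping from exons of GENCODE M21 where it had at least 10% as many reads. Replicate pairs differed by 7.12 to 13.3 times the chi-square expected from counting noise, so no library was counted as a repeat of another.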

Additional observations from a re-analysis of the deposited data

How the results depend on the processing

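The Bcl2l1 call held in each of 15 alternatives. The Bcl2 call ended in 8 of them and the Bmf call in 12, with the direction kept in each. Of the 3 members that passed, 1 passed with no filter on low counts, 1 with unfiltered FPKM and 1 with the replicate block, in each case Bcl2l1, and 1 to 2 passed when a library was left out. Over all genes, 899 passed with no filter, 867 with unfiltered FPKM and 529 to 1243 with a library left out. The first 2 test 23352 genes and the last uses 5 samples, and these are 3.85%, 3.71% and 3.83% to 9.01% of the genes tested. With the replicate number as a block, 408 of 13601 genes passed in place of 1503, and of the wider lists 7 in place of 12 (7 to 12 with a library left out, the lowest without GSK126 replicate 1). Samples with the same number did not deviate together (correlations 0.01, 0.01 and -0.06), and of the 6 samples 0 correlated best with their own number, so the numbers were not taken as pairs. Under the block the calls of Bnip3l (0.0562), Htra2 (0.0532), Cflar (0.0877), Ddit3 (0.0874) and Foxo3 (0.139) also ended. The summed FPKM of the anti-apoptotic genes differed by 3.04% with GSK126 (1.49 to 4.05% with a library left out, 3.76% in CPM), that of the effectors by -5.62% (-8.57 to -0.625%, the last without GSK126 replicate 3, and -4.56% in CPM), and that of the BH3-only genes by -11.2% (-14.7 to -8.43%, and -6.57% in CPM). Bmf, Bbc3 and Bcl2l11 had 96 to 186 reads per library, which limits their precision.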

Other observations

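Some genes close to the family varied widely within a group, chosen after their values were seen. Bcl2l2, which encodes the anti-apoptotic protein BCL-W, had 218, 471 and 240 reads with DMSO and 425, 436 and 382 with GSK126, so that DMSO replicate 2 lay with those treated (log2 fold change 0.35 ± 0.26 SE, edgeR adjusted p = 0.43). It shares 594 bp of exons on the same strand with the read-through gene Gm20521, which had 501 reads in all against 2172. Without DMSO replicate 2 the Bcl2l2 log2 fold change was 0.76 (adjusted p = 0.0184 by edgeR). Xiap, a direct caspase inhibitor, had 570, 774 and 1279 reads with DMSO and 1291, 554 and 1518 with GSK126, and the interval of its log2 fold change ran from -0.69 to 1.26. Apaf1, the scaffold of the apoptosome, had 1016, 1069 and 1526 reads with DMSO and 981, 1050 and 1136 with GSK126, where DMSO replicate 3 alone was high.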
